A study of Mus musculus with 4 samples.

Results

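The integrated stress response and the brakes on mTOR were examined through 10 mouse genes: Atf4, Ddit3, Trib3, Asns, Chac1, Ddit4, Sesn1, Sesn2, Ndrg1 and Ppp1r15a. They were listed by name and found by their NCBI gene identifiers among the 27179 genes of the count table, and all 10 passed the filter on low counts. The cells were MC38, a mouse colon carcinoma line of WT genotype, profiled by poly-A RNA-seq in 4 conditions with 1 library each. These were untreated control cells under normoxia, untreated control cells under hypoxia, IFN-γ treated cells under normoxia and IFN-γ treated cells under hypoxia. Oxygen was 20% in normoxia and 1.5% in hypoxia. IFN-γ treatment was 5 ng/mL for 24 h, the setting given for most experiments with these cells, and the time under hypoxia was not given in the sources used here. The comparisons ask how low oxygen and IFN-γ, alone and together, changed the mRNA of genes that respond to stress and hold back growth. The libraries held 34302971 counts for control normoxia, 34514248 for control hypoxia, 34537939 for IFN-γ normoxia and 34420642 for IFN-γ hypoxia, so that the deepest was 1.007 times the shallowest.

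Cells sense amino acid shortage, unfolded protein, viral RNA and heme shortage through kinases that phosphorylate eIF2α, the regulatory subunit of a translation initiation factor. Bulk translation then slows while the mRNA of ATF4 is translated more, and ATF4 drives genes for amino acid supply, redox balance and, when stress lasts, cell death. In parallel, REDD1 (encoded by Ddit4) and the sestrins restrain mTORC1, the kinase complex that promotes translation and growth. Both arms are known to respond to low oxygen in solid tumors, where hypoxia-inducible factors (HIF) activate genes such as Ddit4 and Ndrg1.

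The label of a colon cancer line was checked against markers. Of 9 colon epithelium markers, 3 passed the filter on low counts, Krt8, Krt20 and Vil1. Cdh1, Cdx2 and Lgr5 had 0 counts in every library, and Epcam and Krt18 had at most 2 counts in any library, while Krt19, not tested, had 2, 18, 2 and 0 counts in control normoxia, control hypoxia, IFN-γ normoxia and IFN-γ hypoxia. Summed over the list, the level was 3.26, 3.04, 2.6 and 2.48 CPM (counts scaled to TMM-normalized library totals) in the same order. Krt8 was the most abundant, at a mean of 1.81 CPM, and 32.3% of its 31-base words occur in other annotated genes. The 9 leukocyte markers summed to 18.5, 20.9, 19.8 and 18.3 CPM in the same order, with Cd14 the most abundant at a mean of 16.5 CPM, and Cd8a and Adgre1 at 0 counts throughout. The 8 endothelial and fibroblast markers summed to 2360, 2400, 2220 and 2230 CPM, nearly all of it from the mesenchymal gene Vim, at a mean of 2260 CPM, while Kdr and Thy1 had 0 counts throughout. A count of 0 allowed a level of up to 0.0875 CPM, taking 3 counts as the floor. Only 3 colon epithelium, 3 leukocyte and 6 endothelial and fibroblast markers passed the filter. The edgeR test described below called 0 of them with either stimulus. Over all tested genes, 8.21% were up-regulated and 6.83% down-regulated by hypoxia, and 4.76% and 1.1% by IFN-γ. The part of other cells in the results was not tested, and in bulk RNA fewer cells of a kind and less RNA per cell cannot be told apart.

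The 10 genes differed widely in level, compared here as CPM per kilobase of exon. In control normoxia the order was Atf4 at 141, Ddit4 at 98.0, Asns at 94.8, Trib3 at 36.1, Ndrg1 at 17.8, Ddit3 at 13.7, Chac1 at 12.9, Sesn2 at 8.97, Ppp1r15a at 8.45 and Sesn1 at 6.63 CPM per kilobase. The counting intervals of Ddit4 and Asns, of Ddit3 and Chac1, and of Sesn2 and Ppp1r15a overlapped in that library, and those of the other neighbours did not. Under hypoxic conditions Ddit4 moved to the top, at 207 CPM per kilobase in control cells and 178 in IFN-γ treated cells, ahead of Atf4 at 146 and 151. Trib3, Ndrg1, Ddit3, Chac1, Sesn2, Ppp1r15a and Sesn1 kept their places in all 4 libraries. The counting intervals of Sesn2 and Ppp1r15a also overlapped in IFN-γ hypoxia, at 10.8 and 9.9 CPM per kilobase. Summed over the 10 genes, the level was 1080 CPM in control normoxia, 1490 in control hypoxia, 1120 in IFN-γ normoxia and 1460 in IFN-γ hypoxia.

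**Figure D1:**
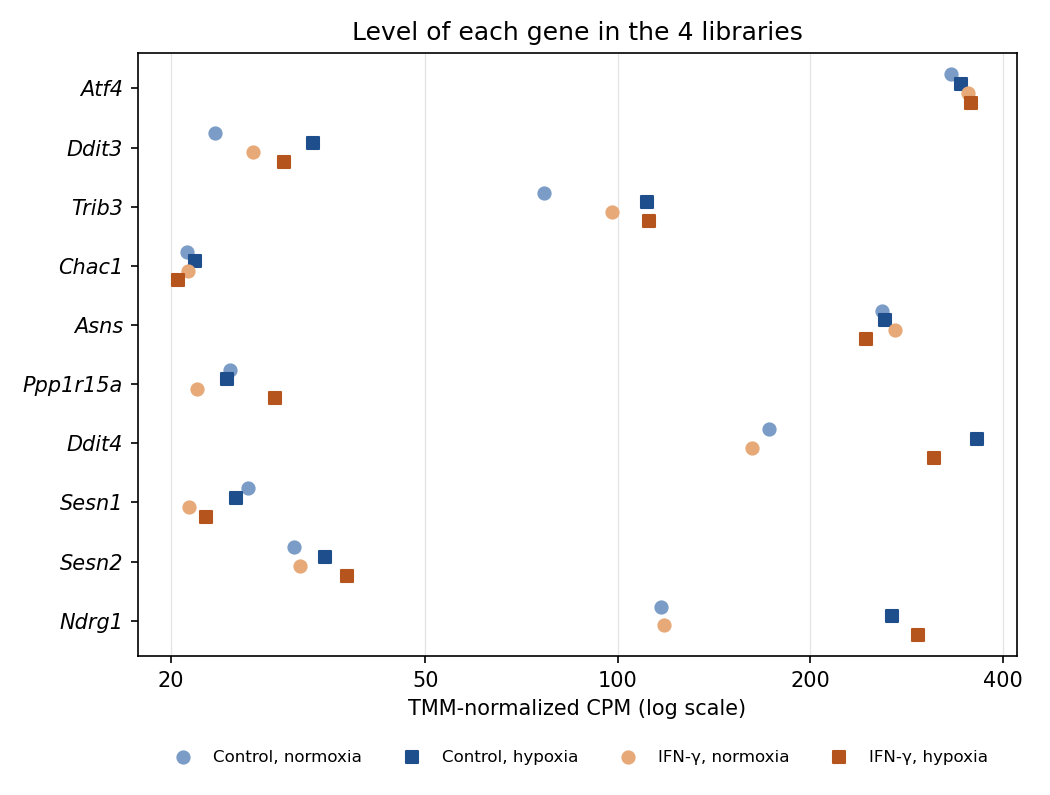
TMM-normalized CPM (horizontal, log scale) of each of the 10 genes in the 4 libraries, 1 point per library, circles for normoxia and squares for hypoxia. For Ddit4 and Ndrg1 both hypoxic libraries stand apart to the right of both normoxic ones (312 and 364 against 162 and 172 CPM for Ddit4), while Atf4 and Chac1 points lie close together.

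Hypoxia up-regulated 4 of the 10 genes, Ndrg1, Ddit4, Trib3 and Ddit3, and down-regulated 0 of them. Over all 13580 genes tested, 8.21% were up-regulated and 6.83% down-regulated by the same test, edgeR's quasi-likelihood test in a model with oxygen and IFN-γ as additive terms, at an adjusted p under 0.05. At an unadjusted p under 0.05 there were 6 of the 10 genes, all with a positive log2 change, beside 26.5% of all tested genes (14.1% with a positive and 12.4% with a negative change). DESeq2's Wald test called 3 up-regulated and 0 down-regulated, against 339 and 209 of the 18812 genes given to it. For hypoxia, its own filter left some genes of low count without an adjusted p. IFN-γ treatment up-regulated 0 and down-regulated 0 of the 10, where 4.76% of all tested genes were up-regulated and 1.1% down-regulated. For IFN-γ, 3 of the 10 genes (Trib3, Ddit4 and Sesn1) had an unadjusted edgeR p under 0.05, beside 14% of all tested genes. DESeq2's Wald test called 0 of the 10 for IFN-γ, against 348 up-regulated and 17 down-regulated of its 18812 genes. The median log2 change of the 10 genes was 0.20 with hypoxia and 0.03 with IFN-γ, beside 0.00 and -0.01 over all tested genes. With 1 library per condition, the spread in this test is the departure from additivity pooled over genes of similar count, in which variation among cultures and a real interplay of both stimuli count alike. The departure of a gene itself had almost no weight in its own p. For each of the 4 up-regulated genes, the adjusted p was lower in this fit than in any of the 6 alternative fits listed under processing. No difference had a replicate check, and the 95% intervals given for single pairs of libraries cover counting error only.

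Among the transcription factors, ATF4 itself showed little difference at the mRNA level. Atf4 (NCBI gene 11911, chromosome 15) had 11499 counts in control normoxia, 11905 in control hypoxia, 12063 in IFN-γ normoxia and 12201 in IFN-γ hypoxia. The normoxic and hypoxic libraries overlapped, and both IFN-γ libraries lay slightly above both control libraries. The fitted log2 change was 0.04 with hypoxia (standard error 0.052, adjusted p = 0.727) and 0.07 with IFN-γ (standard error 0.052, adjusted p = 0.694), and neither passed the test. Over the 4 libraries its log2 CPM spanned 0.10.

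Ddit3 (NCBI gene 13198, chromosome 10) encodes CHOP, the pro-apoptotic factor that ATF4 induces. Its counts were 814 in control normoxia, 1155 in control hypoxia, 924 in IFN-γ normoxia and 1030 in IFN-γ hypoxia. Both hypoxic libraries were above both normoxic libraries, and the hypoxic library without IFN-γ was the highest of the 4. Ddit3 rose with hypoxia by a log2 change of 0.33 in the additive fit (1.26-fold, standard error 0.0825, adjusted p = 0.000992). This call was lost with DESeq2's Wald test (adjusted p = 0.268) and in the model with oxygen as its only term (adjusted p = 0.194), and the adjusted p ranged from 0.00893 to 0.268 over the 6 alternative fits. The gene shares 68 exon bases, 3.97% of its exons, with Mars (Mars1 in the count table) and 13 bases (0.759%) with Gm4189 on the opposite strand, and 105 bases (6.13%) with another GENCODE entry also named Ddit3 on the same strand. The strand setting of the counting was not given in the sources used here.

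Trib3 (NCBI gene 228775, chromosome 2) encodes a pseudokinase that is induced by ATF4 and CHOP and binds both ATF4 and AKT. It had 2655 counts in control normoxia, 3829 in control hypoxia, 3352 in IFN-γ normoxia and 3838 in IFN-γ hypoxia. The control normoxia library was the lowest, and the 2 hypoxic libraries were nearly level with each other and above both normoxic ones. Trib3 rose 1.29-fold with hypoxia (log2 change 0.36, standard error 0.063, adjusted p = 4.1e-07). The adjusted p ranged from 0.000432 to 0.23 over the 6 alternative fits, and the highest, from the model with oxygen as its only term, was the one that missed the threshold. The IFN-γ change was 0.18 (adjusted p = 0.0657), with 0.35 under normoxia (95% interval 0.28 to 0.42) and 0.02 under hypoxia (95% interval -0.05 to 0.08).

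Among metabolic targets of ATF4, Asns (NCBI gene 27053, chromosome 6), which encodes asparagine synthetase, had 8981 counts in control normoxia, 9050 in control hypoxia, 9283 in IFN-γ normoxia and 8352 in IFN-γ hypoxia. The library with both stimuli was the lowest and the groups overlapped. Its log2 change was -0.07 with hypoxia (adjusted p = 0.453) and -0.02 with IFN-γ (adjusted p = 0.953). Chac1 (NCBI gene 69065, chromosome 2), which encodes an enzyme that degrades glutathione, had 734, 755, 729 and 702 counts in the same order of libraries. In CPM the 4 values were 21.2, 21.8, 21.3 and 20.5, which overlapped between all groups. They spanned 0.09 in log2 CPM, the narrowest of the 10 genes. The Chac1 change was 0.00 with hypoxia (standard error 0.0906, adjusted p = 0.985) and -0.04 with IFN-γ (adjusted p = 0.933).

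Ppp1r15a (NCBI gene 17872, chromosome 7) encodes GADD34, the regulatory subunit that directs protein phosphatase 1 to eIF2α and so ends the response. Its counts were 859 in control normoxia, 847 in control hypoxia, 756 in IFN-γ normoxia and 996 in IFN-γ hypoxia. The library with both stimuli was the highest and the library with IFN-γ alone the lowest, so the groups overlapped for both stimuli. The log2 change was 0.19 with hypoxia (adjusted p = 0.117) and 0.04 with IFN-γ (adjusted p = 0.931) in the additive fit. Taken by pairs, the hypoxia change was -0.02 without IFN-γ (95% interval -0.16 to 0.12) and 0.40 with IFN-γ (95% interval 0.26 to 0.54). An exon overlap of 12 bases (0.409%) with Tulp2 lies on the opposite strand.

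The promoters of these ATF4 targets are shown to place them beside the values of Asns, Chac1 and Trib3. Each line gives the 250 bases upstream of the start site from RefSeq, 5′ to 3′ on the strand of the gene, in build GRCm38.p6. Capitals mark matches on either strand to TGATGNAA, the core of the C/EBP-ATF response element, or to ACGTG or GCGTG, the core of the hypoxia response element. The windows are chr6:7693210-7693459 (minus strand) for Asns, chr2:119350992-119351241 (plus strand) for Chac1 and chr2:152344061-152344310 (minus strand) for Trib3.
Asns: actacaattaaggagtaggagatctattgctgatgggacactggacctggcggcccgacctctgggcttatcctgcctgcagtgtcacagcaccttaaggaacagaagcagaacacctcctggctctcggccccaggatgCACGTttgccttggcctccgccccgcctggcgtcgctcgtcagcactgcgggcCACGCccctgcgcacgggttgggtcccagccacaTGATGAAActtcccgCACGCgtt
Chac1: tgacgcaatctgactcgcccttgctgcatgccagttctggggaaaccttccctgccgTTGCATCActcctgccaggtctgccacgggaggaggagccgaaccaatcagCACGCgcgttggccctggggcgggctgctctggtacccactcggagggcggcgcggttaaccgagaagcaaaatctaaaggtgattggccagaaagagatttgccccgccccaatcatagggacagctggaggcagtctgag
Trib3: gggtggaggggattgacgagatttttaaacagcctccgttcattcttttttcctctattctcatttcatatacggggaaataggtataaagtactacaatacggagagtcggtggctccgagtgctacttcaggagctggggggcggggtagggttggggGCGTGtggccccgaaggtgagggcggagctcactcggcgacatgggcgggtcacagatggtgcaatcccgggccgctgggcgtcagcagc
In Asns the first of these cores, TGATGAAA, starts 23 bases before the start site. In Chac1 the reverse complement of the same core, TTGCATCA, starts 193 bases before it, and the Trib3 window holds 1 match to the hypoxia core, GCGTG, 90 bases before the start site. Promoter entries were found for 9 of the 10 genes, with 2 windows for Sesn1, and Ndrg1 had none. TGATGNAA was found upstream in 2 of these 10 windows, those of Asns and Chac1, and in 3.45% of all 32851 windows of the same length. Trib3 has a match, TTACATCA, 14 bases after the start site, outside the printed stretch. ACGTG or GCGTG was found in 8 of the 10 windows, all except that of Sesn2 and the one at the start of Sesn1, and in 38.6% of all windows. A match is a description of the letters and not a measured site.

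The largest change among the brakes on mTOR was in Ddit4 (NCBI gene 74747, chromosome 10), which encodes REDD1, an inhibitor of mTORC1 that acts through the TSC complex. Ddit4 had 5954 counts in control normoxia, 12581 in control hypoxia, 5551 in IFN-γ normoxia and 10677 in IFN-γ hypoxia. Both hypoxic libraries were far above both normoxic libraries, and within each oxygen level the IFN-γ library was the lower. Ddit4 rose 2.02-fold with hypoxia (log2 change 1.01, standard error 0.055, adjusted p = 3.15e-72), rank 195 of 13580 tested genes from the top, and the adjusted p ranged from 1.16e-44 to 0.011 over the 6 alternative fits. The hypoxia change was 1.08 without IFN-γ (95% interval 1.04 to 1.13) and 0.95 with IFN-γ (95% interval 0.90 to 0.99). With IFN-γ the log2 change was -0.16 (standard error 0.0546, adjusted p = 0.0637). That value passed the threshold in 1 of the 6 alternative fits, the one scaled by total counts (adjusted p = 0.0498), and the adjusted p reached 0.999 in the model with IFN-γ as its only term. The promoter of Ddit4 is printed because the gene had the largest hypoxia change among the members with a promoter entry. It holds both forms of the hypoxia core, as do those of Asns and Ppp1r15a, which hypoxia did not change by the test (-0.07 and 0.19). The window is chr10:59951771-59952020 (minus strand, GRCm38.p6, RefSeq), written as the others, with ACGTG 187 bases and GCGTG 115 bases before the start site in capitals.
Ddit4: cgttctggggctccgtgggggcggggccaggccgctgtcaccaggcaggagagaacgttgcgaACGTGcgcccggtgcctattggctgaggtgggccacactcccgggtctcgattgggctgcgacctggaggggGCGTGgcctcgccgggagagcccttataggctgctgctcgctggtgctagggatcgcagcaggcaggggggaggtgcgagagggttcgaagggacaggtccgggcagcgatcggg
ACGTG alone, on either strand, was found in 16.6% of all windows of this length.

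The sestrins sense amino acids and oxidative stress upstream of mTORC1. Sesn2 (NCBI gene 230784, chromosome 4) encodes a leucine sensor that releases the inhibitor complex GATOR1, and is a known target of ATF4. It had 1079 counts in control normoxia, 1204 in control hypoxia, 1090 in IFN-γ normoxia and 1290 in IFN-γ hypoxia. Both hypoxic libraries were above both normoxic libraries, by a small margin. The log2 change of 0.20 with hypoxia did not pass the test (standard error 0.0787, adjusted p = 0.0611), and its adjusted p was between 0.0715 and 0.602 in the alternative fits. By pairs the hypoxia change was 0.16 in control cells (95% interval 0.04 to 0.28) and 0.24 in IFN-γ treated cells (95% interval 0.13 to 0.36). Sesn1 (NCBI gene 140742, chromosome 10), a sestrin gene known as a p53 target, had 914, 874, 735 and 777 counts in the same order of libraries. Both IFN-γ libraries were below both control libraries, while normoxia and hypoxia overlapped. For Sesn1 the fit gave -0.23 with IFN-γ, the lowest IFN-γ value of the 10 genes (standard error 0.0866, adjusted p = 0.114), and 0.01 with hypoxia (adjusted p = 0.97).

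Ndrg1 (NCBI gene 17988, chromosome 15) encodes a stress-responsive protein that is phosphorylated by SGK1 downstream of mTORC2 and is a known HIF target. Its counts were 4062 in control normoxia, 9264 in control hypoxia, 4049 in IFN-γ normoxia and 10098 in IFN-γ hypoxia. The 2 normoxic libraries were level with each other and both hypoxic libraries were far above them, the one with IFN-γ the highest. Ndrg1 rose 2.39-fold with hypoxia (log2 change 1.26, standard error 0.0572, adjusted p = 5.62e-102), rank 104 of 13580 genes from the top, with an adjusted p from 3.09e-60 to 0.00182 over the 6 alternative fits. Its IFN-γ change of 0.08 did not pass the test (adjusted p = 0.653). The predicted genes Gm17035 and Gm2895 overlap 6.35% and 2.08% of its exon bases on the opposite strand.

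**Figure D2:**
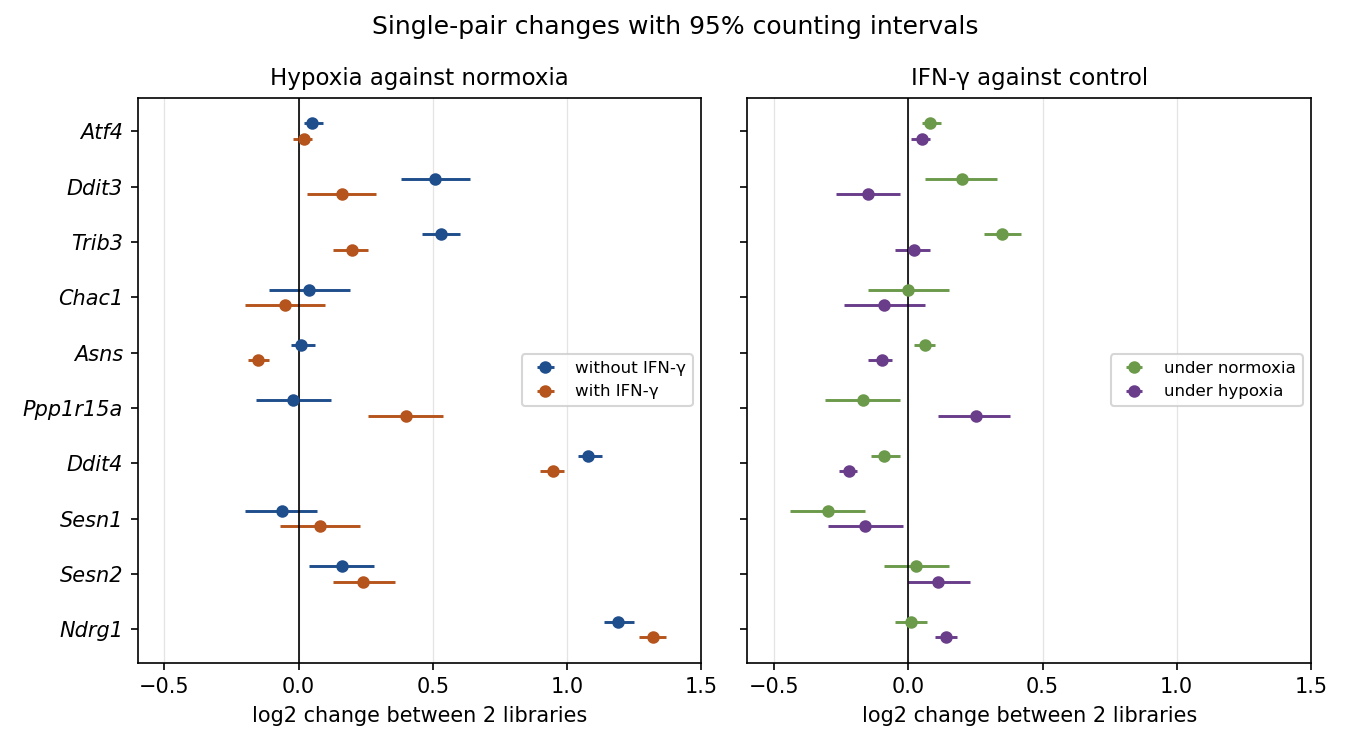
Log2 change between pairs of libraries (horizontal) for each gene, with hypoxia against normoxia in the left panel and IFN-γ against control in the right. Points are single pairs and bars are 95% counting intervals. In the left panel Ddit4 (1.08 and 0.95) and Ndrg1 (1.19 and 1.32) stand far to the right in both pairs, and in the right panel every point lies between -0.30 and 0.35.

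The effect of each stimulus was next set beside its effect in the presence of the other. The 2 hypoxia pairs have no library in common, nor do the 2 IFN-γ pairs, but each hypoxia pair shares libraries with both IFN-γ pairs. Without IFN-γ, the counting interval of the hypoxia change lay above 0 for 6 of the 10 genes and below 0 for 0, beside 26.3% and 26.1% of the 10443 genes that reached 100 counts in each of the 4 libraries. With IFN-γ it lay above 0 for 6 and below 0 for 1, Asns, at -0.15 (95% interval -0.19 to -0.11), beside 24% and 29%. For IFN-γ the interval lay above 0 for 4 and below 0 for 3 under normoxia (19.8% and 18.9% of the 10443), and above 0 for 3 and below 0 for 4 under hypoxia (18.5% and 24.5%). For Ddit3 the hypoxia change was 0.51 in control cells (95% interval 0.38 to 0.64) and 0.16 in IFN-γ treated cells (95% interval 0.03 to 0.29), and for Trib3 0.53 (95% interval 0.46 to 0.60) and 0.20 (95% interval 0.13 to 0.26). The difference, with minus without IFN-γ, was -0.35 for Ddit3 (95% counting interval -0.53 to -0.17) and -0.33 for Trib3 (95% counting interval -0.43 to -0.24). For Asns, Ddit4 and Ndrg1 it was -0.16, -0.14 and 0.13. For Ppp1r15a it was 0.42 (95% counting interval 0.22 to 0.61), with the opposite sign to that of Ddit3 and Trib3. The counting interval of the difference left out 0 for these 6 genes, as it did for 34.5% of the 10443. Over those genes the central 95% of the difference ran from -0.36 to 0.40, and Ppp1r15a was the 1 gene of the 10 outside it. That range includes genes with far fewer counts than any of the 10. Without replicates the difference itself was not tested.

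**Figure D3:**
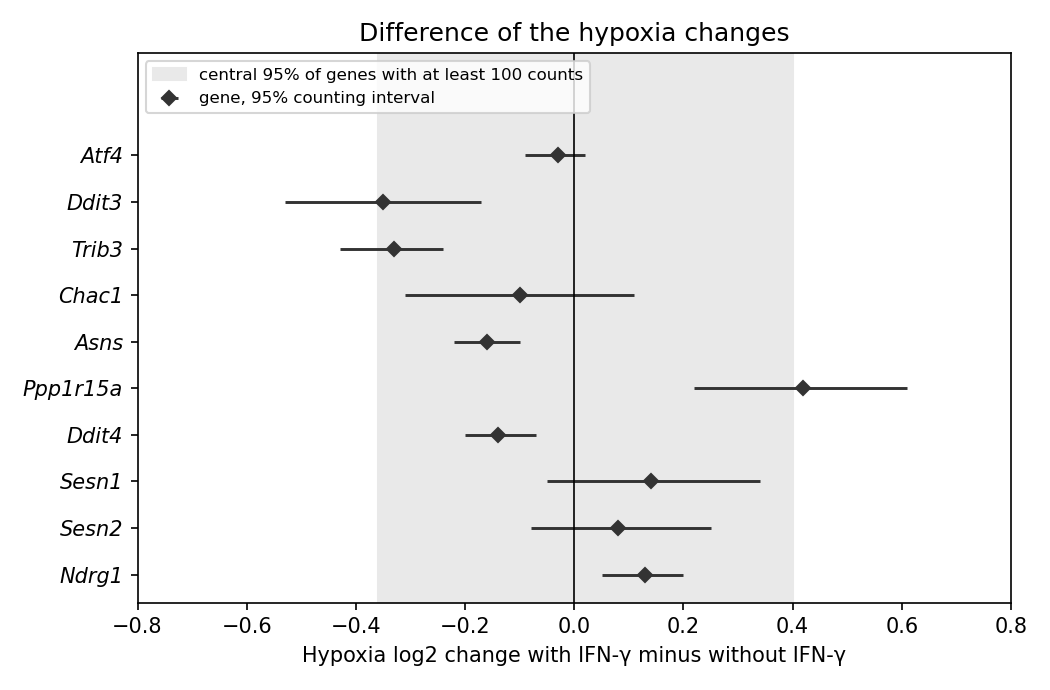
Hypoxia log2 change with IFN-γ minus that without IFN-γ (horizontal) for each gene, with 95% counting intervals as bars. The grey band, -0.36 to 0.40, is the central 95% of genes that reached 100 counts in each library, and the Ppp1r15a point at 0.42 lies just beyond it.

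Upstream of ATF4, the eIF2α kinases and core machinery were examined. Of 19 genes tested, hypoxia up-regulated 1 and down-regulated 3, with a list median of -0.02. IFN-γ up-regulated 1 and down-regulated 0. Over all tested genes, 8.21% were up-regulated and 6.83% down-regulated by hypoxia, and 4.76% and 1.1% by IFN-γ. Eif2ak2, which encodes PKR, the double-stranded RNA sensor, had 2099 and 2406 counts in control normoxia and hypoxia and 3153 and 3295 with IFN-γ. Both IFN-γ libraries were above both control libraries, and Eif2ak2 rose 1.45-fold with IFN-γ (log2 change 0.53, standard error 0.0661, adjusted p = 4.63e-14). Eif2ak3, which encodes PERK, the kinase of the endoplasmic reticulum, had a log2 change of 0.22 with hypoxia (adjusted p = 0.04) that was called in 1 of the 6 alternative fits. The heme-regulated kinase gene Eif2ak1 had -0.02 with hypoxia (adjusted p = 0.858) and the amino acid sensor gene Eif2ak4, which encodes GCN2, had 0.16 (adjusted p = 0.125). The 3 genes down-regulated by hypoxia encode subunits of eIF2B, the exchange factor that phosphorylated eIF2α blocks: Eif2b1 at -0.21 (adjusted p = 0.0138), Eif2b4 at -0.19 (adjusted p = 0.0484) and Eif2b3 at -0.18 (adjusted p = 0.0495). Eif2b1 was called in 4 of the 6 alternative fits, and Eif2b4 and Eif2b3 in 0. The other eIF2B genes, Eif2b2 and Eif2b5, had 0.02 (adjusted p = 0.876) and -0.02 (adjusted p = 0.899).

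Genes of amino acid supply that ATF4 is known to drive were examined next. Of 22 genes tested, hypoxia down-regulated 8, up-regulated 2 and left 12 not called, beside 6.83% down-regulated and 8.21% up-regulated of all tested genes. The list median was -0.11, and the direction of the list was not tested. In the model with oxygen as its only term, 0 were down-regulated and 1 up-regulated, against 26 and 150 of all 13580 genes. IFN-γ changed 0 of 22 in the additive fit, beside 4.76% up-regulated and 1.1% down-regulated of all tested genes. Slc7a5, the leucine transporter subunit, had 19938 counts in control normoxia, 14467 in control hypoxia, 17937 in IFN-γ normoxia and 15298 in IFN-γ hypoxia. Both hypoxic libraries were below both normoxic ones, and the fitted log2 change of Slc7a5 was -0.34 (0.788-fold, standard error 0.0502, adjusted p = 5.17e-10). The mitochondrial folate enzyme genes Shmt2 and Mthfd2 had log2 changes of -0.25 (adjusted p = 1.98e-05) and -0.25 (adjusted p = 0.000125). Phgdh, which encodes the enzyme that opens serine synthesis, had -0.23, and 55.8% of its 31-base words also occur in other annotated genes, so its count is uncertain. In the opposite direction, the mitochondrial folate enzyme gene Mthfd1l rose by 0.44 (adjusted p = 4.82e-13) and Aldh1l2 by 0.22 (adjusted p = 0.0067), the latter called in 4 of the 6 alternative fits. Cbs was not tested, with at most 4 counts in any library.

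Many, but not all, of the cytosolic tRNA synthetase genes are known ATF4 targets. Of 17 such synthetase genes, hypoxia up-regulated 1 (Sars, 0.15, adjusted p = 0.0303) and down-regulated 1 (Mars1, -0.17, adjusted p = 0.0196). The list median was -0.06, and over all tested genes 8.21% were up-regulated and 6.83% down-regulated by hypoxia. IFN-γ up-regulated 3 of the 17, beside 4.76% of all tested genes. Wars, the tryptophanyl-tRNA synthetase gene known to be induced by interferon, had 3120, 2934, 4407 and 4789 counts in control normoxia, control hypoxia, IFN-γ normoxia and IFN-γ hypoxia. Its IFN-γ libraries stood above the control libraries at both oxygen levels, and the fitted change was 0.62 (standard error 0.0618, adjusted p = 2.12e-21). Kars had 0.36 (adjusted p = 4.48e-12) and Rars 0.17 (adjusted p = 0.0253) with IFN-γ, called in 5 and 3 of the 6 alternative fits. The hypoxia calls of Sars and Mars1 were made in 3 and 4 of them.

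Among 18 stress transcription factors and other targets of ATF4 or CHOP, hypoxia up-regulated 3 and down-regulated 1, with a median of 0.10. IFN-γ up-regulated 2 and down-regulated 0. Over all tested genes, 8.21% were up-regulated and 6.83% down-regulated by hypoxia, and 4.76% and 1.1% by IFN-γ. Vldlr, the very low density lipoprotein receptor gene, rose by 0.79 with hypoxia (adjusted p = 4.08e-31) and the stress-induced coregulator gene Nupr1 by 0.37 (adjusted p = 2.76e-05). Jdp2, the third gene called, had 0.33 (adjusted p = 0.0342) and was called in 0 of the 6 alternative fits. Cebpb, whose product pairs with ATF4, moved in opposite directions with the stimuli: its log2 change was -0.25 with hypoxia (adjusted p = 0.00343) and 0.56 with IFN-γ (adjusted p = 1.5e-14). The counts of Cebpb were 2166 in control normoxia, 1743 in control hypoxia, 3036 in IFN-γ normoxia and 2655 in IFN-γ hypoxia, in both pairs lower under hypoxia and in both pairs higher with IFN-γ. Its hypoxia call was made in 4 of the 6 alternative fits. Bcl2l11, which encodes the pro-apoptotic BIM, had 0.25 with IFN-γ (adjusted p = 0.0347) and was called in 0 of the 6 alternatives.

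The ER chaperone branch, controlled mainly by XBP1 and ATF6, had 2 of 18 genes up-regulated by hypoxia, Hsp90b1 (0.21, adjusted p = 2.5e-05) and Xbp1 (0.18, adjusted p = 0.0304, called in 3 of the 6 alternative fits), and 1 down-regulated, Ern1 (-0.23, adjusted p = 0.0412), which 0 of the 6 alternative fits called. The list median was -0.01 with hypoxia and 0.10 with IFN-γ. Over all tested genes, 8.21% were up-regulated and 6.83% down-regulated by hypoxia, and 4.76% and 1.1% by IFN-γ. IFN-γ up-regulated 2 of the 18, the ER protein genes Sdf2l1 (0.32, adjusted p = 0.000144) and Manf (0.22, adjusted p = 0.0022), and down-regulated 0. Each was called in 4 of the 6 alternative fits.

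The complexes on which REDD1 and the sestrins act were also examined. Of 33 genes tested for mTORC1 and its regulators, hypoxia up-regulated 2 and down-regulated 2, with a median of 0.01. Over all tested genes, 8.21% were up-regulated and 6.83% down-regulated by hypoxia. IFN-γ changed 0 of the 33, beside 4.76% up-regulated and 1.1% down-regulated of all tested genes. Eif4ebp1, which encodes the translation repressor 4E-BP1 that mTORC1 phosphorylates and which is a known ATF4 target, had 10100 counts in control normoxia, 13513 in control hypoxia, 10187 in IFN-γ normoxia and 12743 in IFN-γ hypoxia. Both hypoxic libraries lay above both normoxic libraries, and Eif4ebp1 rose by 0.37 (1.3-fold, standard error 0.0523, adjusted p = 7.51e-11). The Rag GTPase gene Rraga rose by 0.24 (adjusted p = 0.000441), and Akt1s1, which encodes the mTORC1 inhibitor PRAS40, fell by 0.28 (adjusted p = 0.000463), the latter called in 4 of the 6 alternative fits. Rptor, which encodes the mTORC1 scaffold, had -0.18 with an adjusted p just under the threshold and was called in 0 of the 6 alternative fits. Rragb and Rragd had 0 counts in every library.

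The paralogs of the 10 genes were weakly expressed in several cases. Of 9 tested, hypoxia up-regulated 1, Chac2 (0.30, adjusted p = 0.0124), and down-regulated 2, Ndrg4 (-0.28, adjusted p = 0.00277) and Ndrg3 (-0.18, adjusted p = 0.0341), with the opposite sign to Ndrg1. The hypoxia calls of Chac2, Ndrg4 and Ndrg3 were made in 3, 4 and 3 of the 6 alternative fits. Over all tested genes, 8.21% were up-regulated and 6.83% down-regulated by hypoxia, and 4.76% and 1.1% by IFN-γ. IFN-γ down-regulated 1, Ndrg4 (-0.24, adjusted p = 0.0267), a call made in 1 of the 6 alternative fits. Ddit4l, the paralog of Ddit4, had 5, 14, 4 and 12 counts in control normoxia, control hypoxia, IFN-γ normoxia and IFN-γ hypoxia, and its log2 change of 1.51 with hypoxia had a standard error of 0.738 (adjusted p = 0.165). Ppp1r15b, which encodes the constitutive counterpart of GADD34, had 0.04 with hypoxia (adjusted p = 0.713), Sesn3 had 0.04 (adjusted p = 0.874) and Atf5 had -0.19 (adjusted p = 0.125). Trib1 had -0.17 and Trib2 0.19 with hypoxia (adjusted p = 0.442 and 0.672). Ndrg2 was not tested, with at most 4 counts in any library.

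Sesn1, Sesn2 and Ddit4 are also known targets of p53, and HIF activates Ddit4 and Ndrg1, so these programs are given beside them. Of 14 p53 targets tested, hypoxia up-regulated 3, Trp53inp1 (0.96), Cdkn1a (0.95) and Plk2 (0.20), and down-regulated 1, Aen (-0.36), with a median of 0.07. IFN-γ up-regulated 1, Eda2r (0.65), and down-regulated 2, Btg2 (-0.56) and Plk2 (-0.39), with a median of -0.05. Over all tested genes, 8.21% were up-regulated and 6.83% down-regulated by hypoxia, and 4.76% and 1.1% by IFN-γ. The hypoxia calls of Trp53inp1 and Plk2 were made in 4 and 3 of the 6 alternative fits, and the IFN-γ calls of Eda2r and Btg2 in 4 and 4. Cdkn1a, which encodes the cell cycle inhibitor p21, had 3125 counts in control normoxia, 6174 in control hypoxia, 3107 in IFN-γ normoxia and 5832 in IFN-γ hypoxia, and rose 1.93-fold with hypoxia beside 2.02-fold for Ddit4. Of 23 HIF targets, hypoxia up-regulated 22 and down-regulated 1, Pfkfb3 (-0.24, called in 4 of the 6 alternative fits), with a median of 1.21, beside which Ddit4 (1.01) lay below the median and Ndrg1 (1.26) just above it. The HIF targets with the highest changes were Car9, Bnip3 (1.68), Adm (2.83-fold) and Egln1. Adm had at most 40 counts in any library and was called in 2 of the 4 alternative fits that tested it, and 20.3% of the 31-base words of Bnip3 occur in other annotated genes. IFN-γ changed 0 of the 23 HIF targets by the edgeR test. The HIF and IFN-γ lists were chosen with earlier results of these data known, so their counts are no independent check of either stimulus. Of the IFN-γ targets, 10 of 10 were up-regulated by IFN-γ, with a median of 2.55. Hypoxia up-regulated 7 and down-regulated 0 of these IFN-γ targets, with a median of 0.19. Gbp2 (5.20) and Gbp3 (3.83) had the highest IFN-γ changes, and the highest hypoxia changes in that list were those of Gbp2 (0.40), Psmb8 (0.31), Cd274 and Irf1 (0.24), of which Cd274 was called in 3 of the 6 alternative fits. The hypoxia count of 7 was 3 with DESeq2's Wald test, 3 without a filter and 0 with oxygen as the only term.

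**Figure D4:**
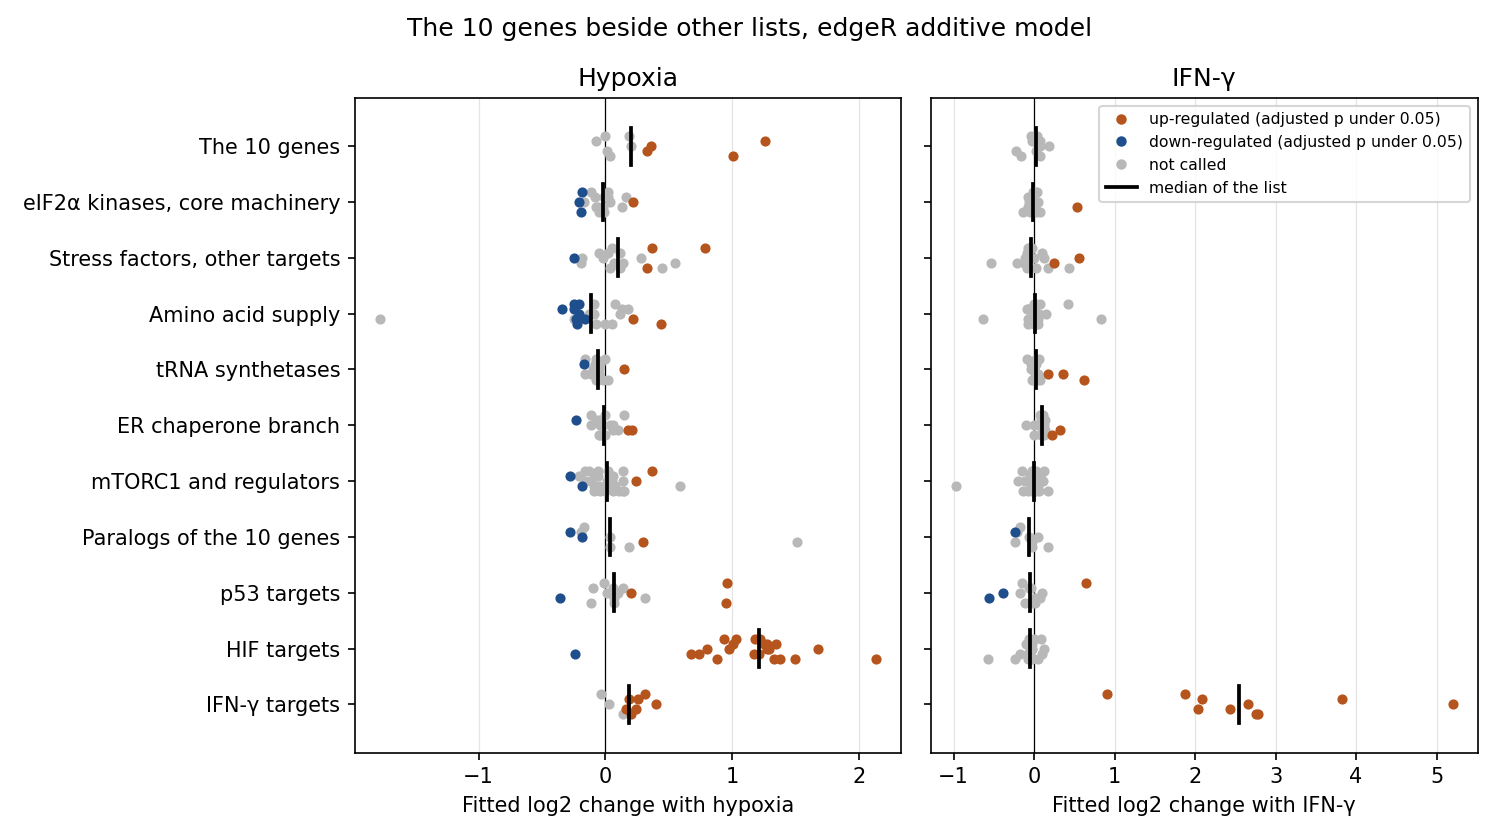
Fitted log2 change (horizontal) with hypoxia (left) and IFN-γ (right) for every tested gene of the 10 and of 10 other lists, 1 point per gene, colored by the edgeR call, with a black bar at the median of each list. The 10 genes have a hypoxia median of 0.20, against 1.21 for HIF targets and -0.11 for amino acid supply genes, and an IFN-γ median of 0.03.

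For the 4 genes whose log2 CPM spanned at least 0.5 over the libraries, the genes with the nearest profile were looked up by the Euclidean distance between mean-centred log2 CPM values, among the same 10443 genes. Nearest to Ddit4 were Gem (distance 0.0966), Plod2 (0.115) and Tpi1 (0.12), which encode a small GTPase, a collagen lysyl hydroxylase and a glycolytic enzyme. Gem had 113, 246, 108 and 192 counts in control normoxia, control hypoxia, IFN-γ normoxia and IFN-γ hypoxia. Nearest to Ndrg1 were Arhgap29 (0.108), the glucose transporter gene Slc2a1 (0.109) and the histone demethylase gene Kdm4b (0.13). Slc2a1 had 4117, 10281, 4507 and 10833 counts in the same order, high in both hypoxic libraries as Ndrg1 was. Within a distance of 0.2 there were 17 genes for Ddit4 and 18 for Ndrg1. For Trib3, 115 genes lay within 0.2, led by Mblac2 (0.0413), Mfhas1 (0.0469) and Jdp2 (0.0494). For Ddit3 there were 396, led by Thra (0.0428), Fpgt (0.0433) and Zfp54 (0.0454). Log2 CPM spanned 0.55 for Trib3 and 0.51 for Ddit3, against 1.17 for Ddit4 and 1.33 for Ndrg1. The distance of 0.2 was not adjusted for span, so these numbers of genes cannot be compared between the 4 genes. These are likenesses over 4 libraries and were not tested.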

How the data were processed

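The counts per gene were made and deposited by the authors, whose processing notes name featureCounts and the build mm10; HISAT2 is named in the study's methods. Versions, annotation and strand setting were not given in the sources used here. The libraries were poly-A selected and strand-specific, with 1 per condition and totals from 34302971 to 34537939 counts. Symbols were matched to 25275 of 27179 gene identifiers.

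Genes were tested with edgeR 4.0.16 in R 4.3.3 on the deposited counts. TMM normalization, the default filter at 10 counts, a quasi-likelihood fit with oxygen and IFN-γ as additive terms, and Benjamini-Hochberg adjustment over 13580 genes at 0.05 were used. The model leaves 1 residual degree of freedom per gene, and the prior degrees of freedom that edgeR estimated were infinite, so the spread was that pooled over genes of similar count. The 6 alternative fits were DESeq2 1.42.0 size factors, total counts, DESeq2's Wald test, no filter, at least 10 counts in every library, and a single term. Single pairs were log2 ratios of normalized CPM with 0.5 counts added and exact (Clopper-Pearson) 95% intervals; levels had exact Poisson intervals.

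The 10 genes and the other lists (eIF2α machinery, amino acid supply, tRNA synthetases, stress factors, ER chaperones, mTORC1, paralogs, p53, HIF and IFN-γ targets, and cell type markers) were chosen with earlier results of these data known. Named genes were the 10, the 4 eIF2α kinases, the eIF2B genes, the paralogs, at most 4 called genes per list, direction and stimulus by the size of change, and the 3 nearest profiles. Markers, most abundant genes and untested list genes, as well as Slc2a1 and Gem as examples, are named beside these. Exon overlaps and shared 31-base words came from GENCODE M21, and promoters (GRCm38.p6) from RefSeq.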

Additional observations from a re-analysis of the deposited data

Results flagged for a closer look

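For 3 of the 10 genes, the IFN-γ changes under normoxia and under hypoxia pointed in opposite directions, with both counting intervals leaving out 0, as for 6.33% of the 10443 genes with 100 counts or more in each library. For Ddit3 the log2 change with IFN-γ was 0.20 under normoxia and -0.15 under hypoxia. For Asns it was 0.06 under normoxia and -0.10 under hypoxia. For Ppp1r15a the order was turned, with -0.17 under normoxia and 0.25 under hypoxia. The differences of Ddit3 and Asns, -0.35 and -0.16, lay inside the central 95% of those genes, -0.36 to 0.40, and that of Ppp1r15a, 0.42, just outside. Each value compares 1 library with 1 library, and the difference was not tested.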

How the results depend on the processing

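The members called up-regulated by hypoxia numbered 2 (Ddit4 and Ndrg1) in the fit with a single term, against 4 in the additive fit, and members down-regulated by IFN-γ numbered 1 (Ddit4) with total counts, where 137 of all 13580 genes were down-regulated, against 0. Among all genes, DESeq2's Wald test called 339 up-regulated and 209 down-regulated by hypoxia and 348 up-regulated and 17 down-regulated by IFN-γ. The single-term fit called 150, 26, 239 and 3 in the same order. The additive fit called 1115, 927, 647 and 149, in each case the most of any fit. Genes down-regulated by IFN-γ also numbered 99 with DESeq2 size factors, 71 without a filter and 74 with at least 10 counts in every library. A single term counts the other stimulus as spread; the cause of the other shifts was not tested. The hypoxia calls of Ddit3 (Wald test and single term) and Trib3 (single term) were lost with the log2 change between 0.32 and 0.36, and no value of the 10 genes was reversed in the 6 fits.

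Calls held in some lists: 10 of 10 IFN-γ targets were up-regulated by IFN-γ in every alternative, and 21 or 22 of 23 HIF targets by hypoxia. Other lists moved. With the single term, hypoxia up-regulated 0 of the eIF2α machinery, tRNA synthetases, ER chaperones, paralogs and IFN-γ targets, and 1 each of the amino acid supply, stress factor, mTORC1 and p53 lists, and down-regulated 0 in every list, HIF targets included. With the Wald test, hypoxia up-regulated 0 of the eIF2α machinery, tRNA synthetases and paralogs, 1 each of the amino acid supply, ER chaperone and p53 lists, and 3 IFN-γ targets. It down-regulated 0 of the eIF2α machinery, tRNA synthetases, stress factors, ER chaperones, mTORC1 genes, paralogs and HIF targets. Without a filter, hypoxia up-regulated 0 of the eIF2α machinery, tRNA synthetases and paralogs, 1 ER chaperone and 3 IFN-γ targets, and down-regulated 1 paralog. With size factors, total counts, no filter and at least 10 counts in every library alike, hypoxia down-regulated 1 gene of the eIF2α machinery, 0 ER chaperones and 1 mTORC1 gene. With total counts and with at least 10 counts in every library, it up-regulated 0 of the eIF2α machinery. For IFN-γ, 1 stress factor was up-regulated in every alternative except the single term, which gave 0. The Wald test gave 0 ER chaperones and 0 p53 targets up-regulated and 1 p53 target down-regulated. The single term gave 1 tRNA synthetase up-regulated, and 0 ER chaperones, 0 p53 targets up and 0 down. No filter gave 4 ER chaperones. Paralogs down-regulated by IFN-γ numbered 0 in every alternative except total counts. In all, 169 of the list counts stayed within 1.5 times and 71 did not, and the 40 single-pair values stayed within their counting intervals both with 5 counts added and with total counts. Of the fitted values of the 10 genes, 24 moved beyond the counting interval, all where a single pair of libraries was taken alone. Each of the 10 genes had at least 702 counts in every library, and no condition had a replicate.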
